A study of Mus musculus with 9 samples.

Results

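Integrins are the receptors by which cells hold on to the extracellular matrix and to each other. Each receptor joins an alpha subunit, which largely sets what is bound, to a beta subunit, whose cytoplasmic tail is gripped by talin and kindlin to switch the receptor on and tie it to actin. Fibroblasts rely on them to crawl, to pull on collagen and fibronectin, and to release latent TGF-beta from the matrix. The 32 genes described here are the 18 alpha subunits, the 8 beta subunits and 6 activators (the talins Tln1 and Tln2, the kindlins Fermt1, Fermt2 and Fermt3, and the integrin-linked kinase Ilk) among the 51912 genes counted. They were taken by name and grouped by ligand, not by a cut on measured values, but with earlier results of these data known. All 32 were found in the table.

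RNA from cultured mouse fibroblasts had been sequenced in 3 groups of 3 libraries. The bcatKO_CAF group was cancer-associated fibroblasts (fibroblasts of the tumour stroma) with the genotype beta-catenin -/-, the CAF group was cancer-associated fibroblasts labelled wild type, and the NF group was normal fibroblasts labelled wild type. All cells came from strain C57BL/6 and were kept in DMEM with 10% FBS. The labels give no tumour, tissue of origin, age, clone or means of deletion, and they do not say that the replicates came from separate animals or cultures, so p-values measure the spread between these libraries, which may be technical. Levels are CPM, counts scaled to a common library total after TMM normalization; differences are log2 fold changes with standard errors from edgeR's quasi-likelihood test, called at a Benjamini-Hochberg adjusted p under 0.05 over 14314 tested genes.

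Totals ran from 15433810 to 21893574 counts per library. Ctnnb1, the beta-catenin gene named in the genotype, was still read at 668, 637 and 627 CPM in bcatKO_CAF, against 855, 882 and 858 CPM in CAF and 713, 799 and 669 CPM in NF, and was lower in bcatKO_CAF than in CAF without overlap (-0.43 ± 0.14, edgeR adjusted p = 0.0339) but not called against NF (-0.17 ± 0.14, adjusted p = 0.620). A count over the whole gene does not by itself show a deletion. NF replicate 1 lay close to the bcatKO_CAF libraries: over all tested genes, correlations of log2 values between bcatKO_CAF and NF libraries reached 0.993, while those among NF libraries were 0.942 to 0.975 and those between bcatKO_CAF and CAF were 0.813 to 0.833. Fibroblast markers were read in every group, at uneven levels. Of the 13, 12 averaged at least 1 CPM in bcatKO_CAF and in NF, and all 13 in CAF. In each comparison with CAF, 8 were called, all higher in CAF, and 5 were not called. That is 61.5% called, where 44.2% (bcatKO_CAF against CAF) and 39.9% (CAF against NF) of all tested genes were. The 13 summed to 7349 to 8160 CPM in bcatKO_CAF, 34954 to 53521 CPM in CAF and 5498 to 7136 CPM in NF. Col1a1 and Col1a2 averaged 19927 and 11915 CPM in CAF. Thy1, a fibroblast surface protein, averaged 0.239 CPM in bcatKO_CAF, 1960 CPM in CAF and 0.389 CPM in NF. The labels do not say that the bcatKO_CAF and CAF cells came from the same starting cells, so a difference between those groups cannot be told apart from one of origin. In bulk RNA, fewer cells of a type and less RNA per cell cannot be told apart.

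The integrin repertoire of CAF differed from that of both other groups. The bcatKO_CAF and NF libraries had more of the laminin receptors Itga3, Itga6, Itga7 and Itgb4, and of Itgb7 and Itgb8, than CAF. CAF had more Itga11, Itga8, Itga9, Itgb5, Tln2 and Ilk than either other group. Of the 32 genes, 25 had enough counts to be tested. Between bcatKO_CAF and CAF, 10 were higher, 11 were lower and 4 were not called, where 44.2% of all tested genes were called (21.5% higher and 22.7% lower). Between CAF and NF, 10 were higher, 10 were lower and 5 were not called, where 39.9% of all tested genes were called (20.0% higher and 19.9% lower). The median size of the log2 difference was 1.87 over the 25 tested members and 0.61 over all tested genes between bcatKO_CAF and CAF, and 2.08 and 0.55 between CAF and NF. The groups did not overlap for 21 of the 25 between bcatKO_CAF and CAF, where 65.7% of all tested genes did not (32.4% above and 33.3% below), and for 20 of the 25 between CAF and NF, where 48.2% did not (24.6% above and 23.6% below). These 2 comparisons share the CAF libraries and so are not independent of each other. Between bcatKO_CAF and NF, 0 of the 25 were called by edgeR, where 0% of all tested genes were called.

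**Figure D1:**
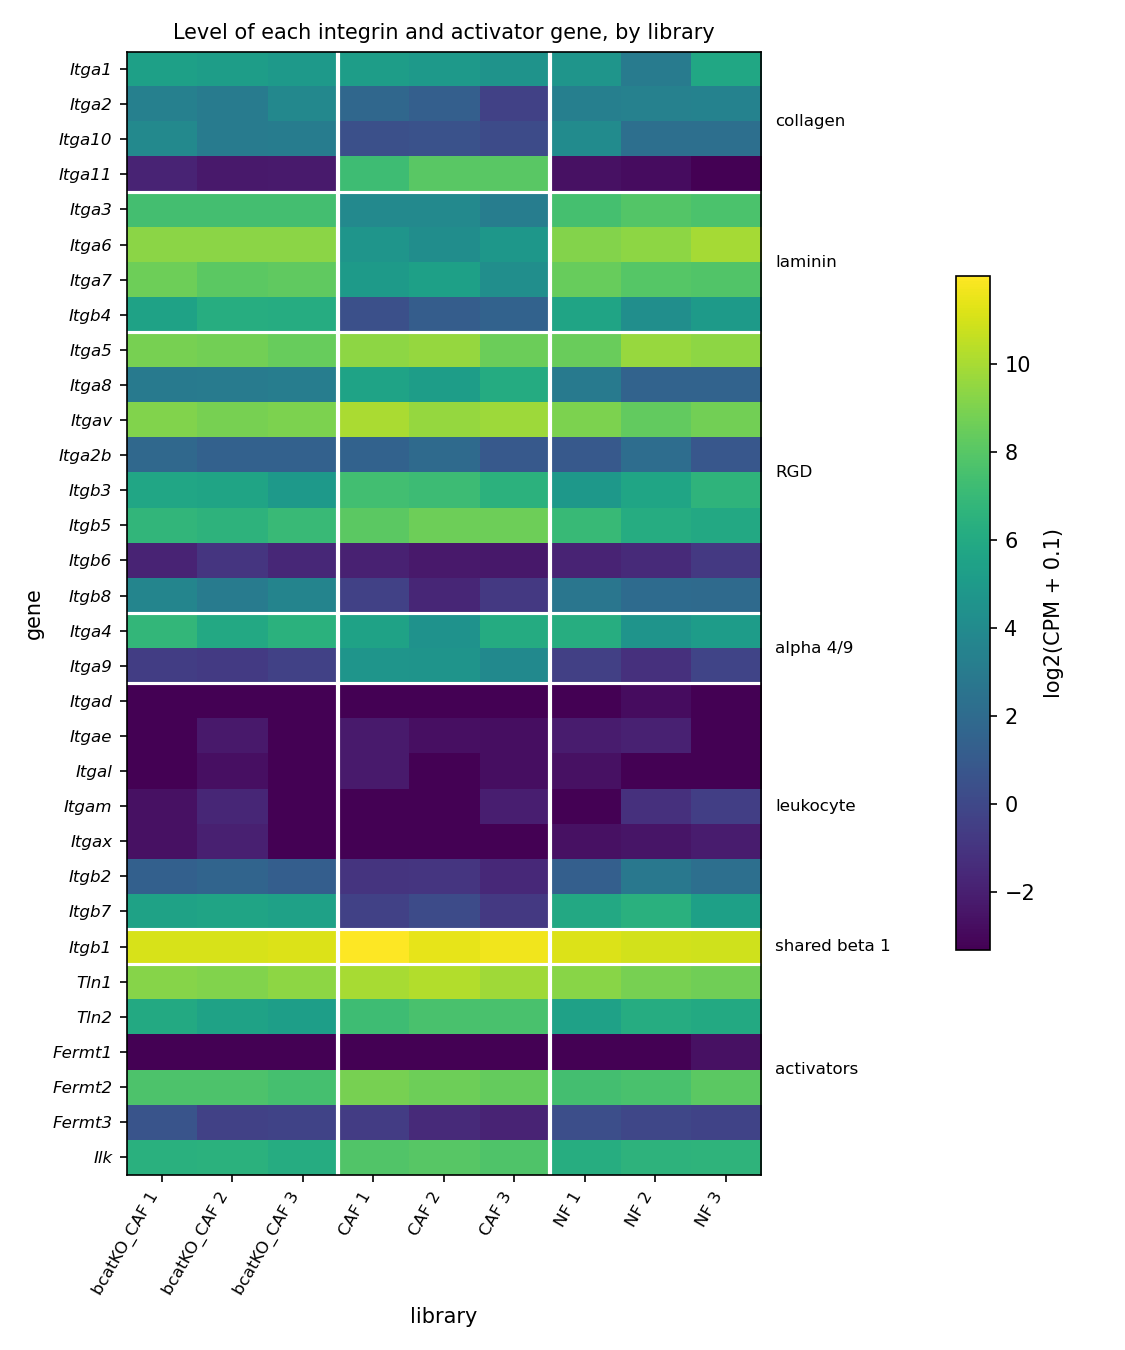
Level of each of the 32 genes (rows, in blocks by ligand class) in each of the 9 libraries (columns), as log2(CPM + 0.1) on a colour scale. The Itga11 row is bright in the 3 CAF libraries (154 to 272 CPM) and dark in the other libraries, the Itga3, Itga6 and Itga7 rows show the opposite, and the leukocyte alpha subunits are dark throughout.

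All 4 laminin receptor genes were higher in bcatKO_CAF than in CAF and lower in CAF than in NF. Itga3, Itga6 and Itga7 encode the alpha chains that bind laminins with beta 1, and Itgb4, the partner of Itga6 in hemidesmosomes, encodes the beta chain that reaches towards intermediate filaments. Itga6 was read at 655, 633 and 641 CPM in bcatKO_CAF, against 25.5, 17.9 and 27.6 CPM in CAF and 565, 661 and 968 CPM in NF. Every bcatKO_CAF and NF library was thus far above every CAF library. Itga6 was higher in bcatKO_CAF than in CAF by a log2 of 4.76 ± 0.27 (edgeR adjusted p = 2.64e-06) and lower in CAF than in NF, at -4.95 ± 0.27 (adjusted p = 2.25e-06). Its gene lies at chr2:71745616-71858416 on GRCm38.

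Itga3 stood at 172, 173 and 173 CPM in bcatKO_CAF, against 15.0, 14.8 and 8.83 CPM in CAF and 178, 240 and 205 CPM in NF. The bcatKO_CAF libraries were nearly equal and lay just below all NF libraries. Itga3 was higher in bcatKO_CAF than in CAF by 3.75 ± 0.23 on the log2 scale (edgeR adjusted p = 3.62e-06) and lower in CAF than in NF (-4.01 ± 0.23, adjusted p = 2.55e-06). Itga7, best known as the laminin receptor of muscle, was read at 384, 280 and 303 CPM in bcatKO_CAF, 33.0, 41.6 and 18.7 CPM in CAF and 347, 252 and 226 CPM in NF. It was higher in bcatKO_CAF than in CAF by 3.38 ± 0.31 (adjusted p = 4.10e-05) and lower in CAF than in NF by edgeR (-3.14 ± 0.31, adjusted p = 5.61e-05), with no overlap of CAF with either group.

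Itgb4 was the least abundant laminin receptor chain, at 45.0, 73.6 and 72.0 CPM in bcatKO_CAF, 1.23, 2.17 and 2.72 CPM in CAF and 48.7, 19.2 and 32.0 CPM in NF. Its difference was of the same order as that of Itga6, at 4.95 ± 0.43 for bcatKO_CAF against CAF (edgeR adjusted p = 3.00e-05) and -4.01 ± 0.42 for CAF against NF (adjusted p = 8.05e-05). Muscle and epithelial markers were read beside these genes, since Itga7 and Itgb4 are known from those tissues. The 10 skeletal muscle markers summed to 390 to 405 CPM in bcatKO_CAF, 3.58 to 14.2 CPM in CAF and 360 to 517 CPM in NF. In bcatKO_CAF and NF, nearly all of it came from Chrna1, a subunit of the muscle acetylcholine receptor. Chrna1 averaged 396, 2.29 and 454 CPM in bcatKO_CAF, CAF and NF. In bcatKO_CAF, the other defining muscle genes Myod1, Myf5, Myog, Myf6, Des and Myh3 had 0 counts. Those at 0 counts were Myf5 and Myf6 in CAF and Myf5 and Myog in NF. Only 2 of the muscle markers were tested, and they were opposed. Chrna1 was higher and Des lower in bcatKO_CAF than in CAF, while Des was higher and Chrna1 lower in CAF than in NF. Of all tested genes, 44.2% and 39.9% were called in these comparisons. The 10 epithelial markers summed to 0.635 to 1.04 CPM in bcatKO_CAF, 7.62 to 22.3 CPM in CAF and 1.14 to 4.56 CPM in NF. The part of muscle or epithelial cells in the levels of the laminin receptors was not tested.

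The collagen receptors did not move together, and their composition differed between CAF and the other groups. Itga1, Itga2, Itga10 and Itga11 encode the alpha chains that carry the collagen-binding I domain, all paired with beta 1; Itga11 is known as a receptor for fibrillar collagen on fibroblasts. Itga11 (chr9:62677826-62783982, GRCm38) was read at 0.193, 0.104 and 0.115 CPM in bcatKO_CAF (7 reads in all), against 154, 272 and 270 CPM in CAF (13661 reads) and 0.0633, 0.0426 and 0 CPM in NF (2 reads). It was thus a gene of the CAF libraries, near 0 in the others. Between bcatKO_CAF and CAF the ratio of summed reads, corrected for depth, was 0.000571 with a 95% counting interval of 0.000229 to 0.00118, and edgeR's adjusted p was 4.55e-07. Between CAF and NF that ratio was 6523 with a 95% counting interval of 1805 to 53867, and edgeR's adjusted p was 3.85e-07. No library of bcatKO_CAF or NF exceeded the floor of 3 counts used here (0.137 to 0.194 CPM), so no fold between those groups is given.

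Itga2, known from platelets and epithelia, was read at 10.3, 8.10 and 14.1 CPM in bcatKO_CAF, against 3.36, 2.38 and 0.668 CPM in CAF and 9.50, 10.7 and 10.9 CPM in NF. It was higher in bcatKO_CAF than in CAF by 2.35 ± 0.48 (edgeR adjusted p = 0.00356) and lower in CAF than in NF (-2.29 ± 0.48, adjusted p = 0.00423), the opposite direction to Itga11. Itga10, a collagen receptor first known from cartilage, was at 14.8, 8.25 and 8.49 CPM in bcatKO_CAF, 1.23, 1.35 and 1.05 CPM in CAF and 16.7, 4.82 and 4.74 CPM in NF. It was higher in bcatKO_CAF than in CAF by 3.11 ± 0.54 (edgeR adjusted p = 0.00153) and lower in CAF than in NF, at -2.84 ± 0.54 (adjusted p = 0.00252), or -1.97 without NF replicate 1. Gm42957, a gene model on the same strand, shares 33.5% of the exon bases of Itga10, and it averaged 0.111 counts per library. Itga1 was read at 41.6, 37.4 and 31.0 CPM in bcatKO_CAF, 36.6, 31.3 and 23.2 CPM in CAF and 25.5, 8.27 and 55.5 CPM in NF. Its groups overlapped and it was not called between bcatKO_CAF and CAF (0.27 ± 0.52, adjusted p = 0.697) or between CAF and NF (0.03 ± 0.52, adjusted p = 0.968). Itga2 and Itga1 lie 21.0 kb apart on chromosome 13.

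Per kb of exon, a scale on which genes can be compared, Itga11 made up 0.424% to 0.571% of the collagen-binding alpha transcripts in bcatKO_CAF, 91.8% to 97.1% in CAF and 0% to 0.288% in NF. In bcatKO_CAF, the rest was shared by Itga10 (35.9% ± 6.69), Itga1 (35.9% ± 5.68) and Itga2 (27.7% ± 8.41; SD, n = 3). That even split depended on the length used. With the longest transcript, Itga1, Itga10 and Itga2 took 0.745%, 0.459% and 0.343% of all alpha transcripts in bcatKO_CAF. With no division by length they took 1.66%, 0.469% and 0.493%. In NF, the same 3 genes averaged 34.4% ± 18.8, 31.2% ± 21.0 and 34.3% ± 15.8, and their order differed from library to library, with Itga10 first in replicate 1, Itga2 in replicate 2 and Itga1 in replicate 3. Without NF replicate 3 the NF mean of Itga1 was 19.3%.

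**Figure D2:**
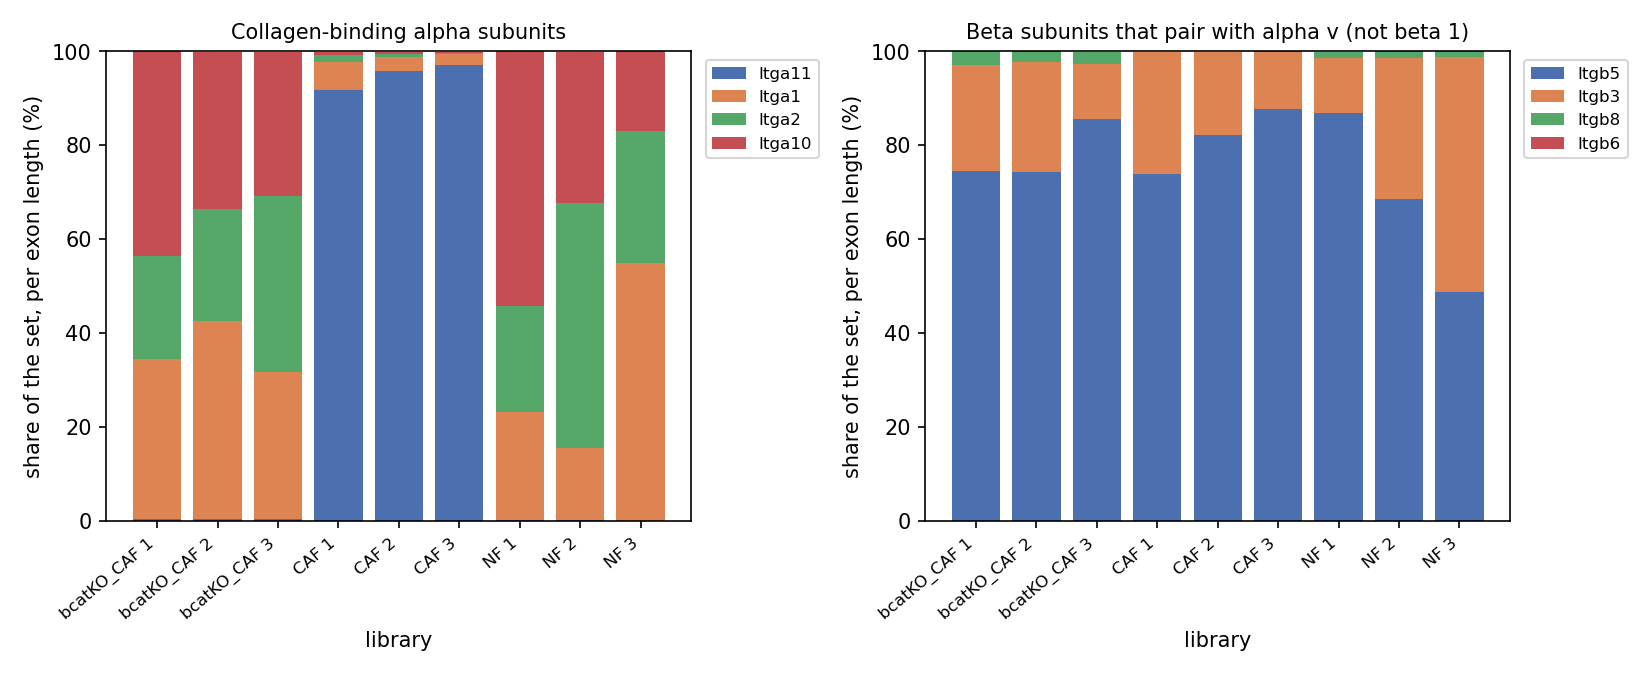
Left, share of each collagen-binding alpha subunit among the 4; right, share of each beta subunit other than beta 1 that pairs with alpha v, both in percent of summed CPM per kb of exon, with 1 bar per library. Itga11 fills 91.8% or more of the left bars in CAF and 0.571% or less elsewhere, while Itgb5 is the largest part of all right bars except that of NF replicate 3.

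Stretches before the transcription start of 3 members are shown because those genes stand for the opposed directions. Itga11 is the alpha subunit with the largest difference between CAF and NF, Itga6 that with the largest in the other direction (named only), Itga3 a laminin receptor that moved the other way and Fermt2 an activator that moved with Itga11; the last 2 were chosen after their values and motifs were seen. The sequences are RefSeq's, 5′ to 3′ on the strand of the gene, on GRCm38.p6, ended where the GENCODE gene begins, with motif matches in capitals (the SMAD letters CAGACA, here on the reverse strand, in Itga3 and a CArG box, the site bound by serum response factor, in Fermt2).
Itga11 (chr9:62677605-62677825, plus strand): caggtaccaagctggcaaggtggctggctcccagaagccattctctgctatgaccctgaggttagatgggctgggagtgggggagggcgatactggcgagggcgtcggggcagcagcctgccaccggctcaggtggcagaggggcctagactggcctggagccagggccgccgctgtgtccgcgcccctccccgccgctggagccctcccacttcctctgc
Itga3 (chr11:95076802-95076964, minus strand): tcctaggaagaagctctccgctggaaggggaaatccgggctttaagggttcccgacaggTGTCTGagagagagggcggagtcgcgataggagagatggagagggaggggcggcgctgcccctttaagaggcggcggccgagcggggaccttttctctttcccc
Fermt2 (chr14:45530119-45530315, minus strand): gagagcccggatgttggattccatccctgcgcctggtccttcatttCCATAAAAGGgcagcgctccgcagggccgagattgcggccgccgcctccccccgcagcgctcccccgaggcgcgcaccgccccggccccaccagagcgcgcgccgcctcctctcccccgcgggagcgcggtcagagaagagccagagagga
The shown stretch of Itga11 is 69.2% G or C, that of Itga3 62.6% and that of Fermt2 72.1%.

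For 23 of the 32 genes, 26 windows of 250 bases before a start were searched on both strands. The CArG box was found in 2 genes, Itgb6 and Fermt2, and in 1.47% of all 32851 windows. The SMAD letters CAGACA were found in 6 genes (Itga4, Fermt1, Itgb1, Itga3, Itgb8 and Itga2) and in 17.1% of all windows. The TEAD letters GGAATG were found in Itga10 and Itgb1 (12.6% of all windows), the TCF/LEF letters NTCAAAG in Itga10, Itgam and Itga1 (13.8%) and the AP-1 letters TGANTCA in Itgax (6.75%). These letters were not found in the Itga11 window. Genes with a SMAD match included some that were higher in bcatKO_CAF than in CAF (Itga2, Itga3 and Itgb8) as well as Itgb1, which was lower, Itga4, which was not called, and Fermt1, which was not tested. A match is a description of the letters, not of binding.

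RGD receptors, which bind fibronectin, vitronectin, osteopontin and the latency peptide of TGF-beta, split by subunit. Itgav, the alpha chain shared by most of them, was read at 550, 468 and 493 CPM in bcatKO_CAF, 1080, 768 and 872 CPM in CAF and 498, 317 and 429 CPM in NF. The level in bcatKO_CAF was lower than in CAF (-0.85 ± 0.21, edgeR adjusted p = 0.00889) and higher in CAF than in NF (1.13 ± 0.21, adjusted p = 0.00214). Itga8, a receptor for nephronectin on mesenchymal cells, was read at 7.58, 8.15 and 8.78 CPM in bcatKO_CAF, 46.4, 37.4 and 67.5 CPM in CAF and 7.48, 2.86 and 2.83 CPM in NF. Its difference was larger than that of Itgav, at -2.63 ± 0.38 for bcatKO_CAF against CAF (edgeR adjusted p = 0.000577) and 3.53 ± 0.40 for CAF against NF (adjusted p = 0.000133), or 4.16 without NF replicate 1.

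Itga5, whose product with beta 1 is the main fibronectin receptor, was read at 463, 429 and 347 CPM in bcatKO_CAF, 675, 759 and 369 CPM in CAF and 358, 802 and 664 CPM in NF. The groups overlapped, and it was not called for bcatKO_CAF against CAF (-0.54 ± 0.33, edgeR adjusted p = 0.215) or for CAF against NF (-0.02 ± 0.33, adjusted p = 0.976). Itga2b, the platelet alpha chain, lay between 1.66 and 4.39 CPM in all libraries and was not called. The 10 platelet markers summed to 0.520 to 2.18 CPM in bcatKO_CAF, 5.78 to 16.0 CPM in CAF and 1.39 to 6.15 CPM in NF. Of these, Ppbp, a platelet chemokine, averaged 0.147, 7.57 and 0.406 CPM in bcatKO_CAF, CAF and NF, Ppbp and Gp1bb were lower and Nrgn higher in bcatKO_CAF than in CAF, and Gp1ba, Gp9 and Gp6 had 0 counts in every library. Their part in the level of Itga2b was not tested.

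The beta chains that pair with alpha v did not move as a block. Itgb5, a vitronectin receptor chain that also activates TGF-beta, was at 107, 94.4 and 131 CPM in bcatKO_CAF, 286, 396 and 400 CPM in CAF and 127, 70.1 and 59.8 CPM in NF. It was lower in bcatKO_CAF than in CAF (-1.71 ± 0.29, edgeR adjusted p = 0.00127) and higher in CAF than in NF (2.08 ± 0.29, adjusted p = 0.000446), without overlap. Itgb8, the chain that presents latent TGF-beta without a link to actin, went the other way, with 12.4, 8.15 and 12.2 CPM in bcatKO_CAF, 0.672, 0.207 and 0.477 CPM in CAF and 6.27, 4.05 and 3.81 CPM in NF. It was higher in bcatKO_CAF than in CAF by 4.58 ± 0.43 (edgeR adjusted p = 4.59e-05) and lower in CAF than in NF (-3.37 ± 0.42, adjusted p = 0.000232). Itgb6, the epithelial TGF-beta activator, had 2 to 8 counts per library and was not tested.

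Itgb3, best known as the beta chain of the vitronectin receptor and of platelets, was less certain. It was read at 53.5, 49.5 and 29.5 CPM in bcatKO_CAF, 167, 142 and 91.3 CPM in CAF and 28.2, 51.2 and 101 CPM in NF. The bcatKO_CAF libraries lay below the CAF libraries, whereas NF replicate 3 overlapped them. Itgb3 was lower in bcatKO_CAF than in CAF (-1.59 ± 0.44, edgeR adjusted p = 0.0159), a call lost without bcatKO_CAF replicate 3 (adjusted p = 0.0558) or CAF replicate 1 (adjusted p = 0.0554). For CAF against NF it was not called (1.15 ± 0.43, edgeR adjusted p = 0.0621), though it was called without NF replicate 3 (1.75, adjusted p = 0.00574), with no filter on low counts (0.0102), by DESeq2 (0.0228) and by limma-voom (0.036). Shares were also taken among the beta partners of alpha v other than beta 1, per kb of exon. There Itgb8 averaged 2.47% ± 0.371 in bcatKO_CAF, 0.0344% ± 0.021 in CAF and 1.22% ± 0.195 in NF (SD, n = 3).

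**Figure D3:**
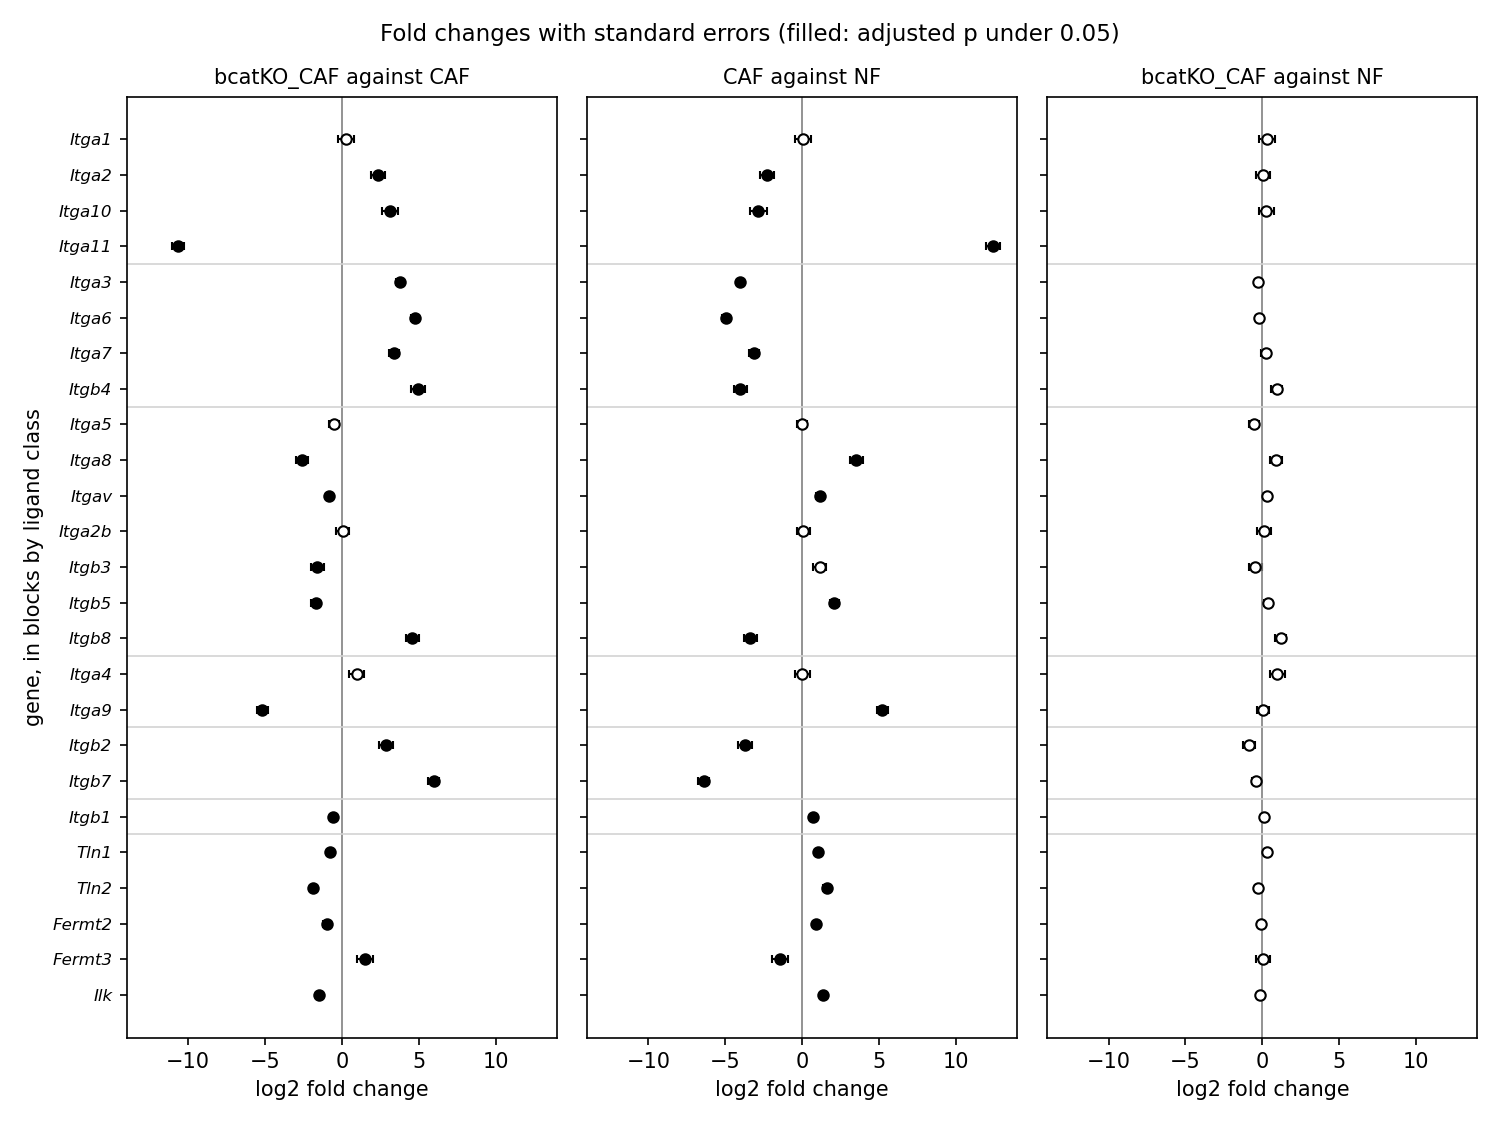
Log2 fold change (horizontal axis) with its standard error for each tested gene (rows, in blocks by ligand class) in the 3 comparisons; filled points had an adjusted p under 0.05. All points of the laminin block and both of the leukocyte block are filled, to the right in the left panel and to the left in the middle panel; no point is filled in the right panel, where Itga11 is left out because both groups were at or under 3 counts in each library.

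Itga4 and Itga9 bind VCAM1 and tenascin and the alternatively spliced part of fibronectin. Itga9 was read at 0.578, 0.519 and 0.693 CPM in bcatKO_CAF, 25.2, 24.6 and 15.3 CPM in CAF and 0.633, 0.341 and 0.800 CPM in NF. It was lower in bcatKO_CAF than in CAF, with a log2 difference of -5.17 ± 0.37 (edgeR adjusted p = 8.96e-06) and higher in CAF than in NF by 5.22 ± 0.37 (adjusted p = 8.61e-06), after Itga11 the next largest difference among alpha subunits in which CAF was high. Itga4 was read at 115, 59.5 and 87.5 CPM in bcatKO_CAF, 45.9, 22.2 and 67.2 CPM in CAF and 74.5, 24.2 and 34.8 CPM in NF. Its groups overlapped and it was not called for bcatKO_CAF against CAF (0.95 ± 0.48, edgeR adjusted p = 0.138) or for CAF against NF (0.02 ± 0.48, adjusted p = 0.978).

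Of the leukocyte receptors, the beta chains were read without most of their alpha partners. Itgb7, which joins Itga4 or Itgae on lymphocytes, was at 44.7, 50.0 and 43.0 CPM in bcatKO_CAF, 0.672, 1.04 and 0.477 CPM in CAF and 59.4, 84.6 and 41.2 CPM in NF. It had the largest difference of the beta subunits, 5.97 ± 0.36 for bcatKO_CAF against CAF (edgeR adjusted p = 3.44e-06) and -6.40 ± 0.36 for CAF against NF (adjusted p = 2.43e-06). Per kb of exon it was the third beta subunit in bcatKO_CAF and NF, at 16.6 ± 1.33 and 22.3 ± 7.87 CPM per kb (SD, n = 3). In NF it overlapped Itgb5 (24.1 ± 10.1 CPM per kb) and Itgb3 (10.2 ± 6.34 CPM per kb). With no division by length it ranked 4 among beta subunits in both groups. Itgb2, the common beta chain of leukocytes, was at 2.51, 2.91 and 2.31 CPM in bcatKO_CAF, 0.392, 0.414 and 0.239 CPM in CAF and 2.41, 6.82 and 4.68 CPM in NF. It was higher in bcatKO_CAF than in CAF (2.87 ± 0.45, edgeR adjusted p = 0.000891) and lower in CAF than in NF (-3.72 ± 0.46, adjusted p = 0.000205).

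The alpha partners Itgal, Itgam, Itgax, Itgad and Itgae had 0 to 10 counts per library, and none reached the test. Most of the exon bases of Itgam (68.7%) are shared with the gene model Gm49368, which had no counts. The 10 leukocyte markers summed to 37.9 to 54.2 CPM in bcatKO_CAF, 4.87 to 22.0 CPM in CAF and 29.3 to 207 CPM in NF. Of the 4 tested, Laptm5 was higher and Coro1a and Lcp1 were lower in bcatKO_CAF than in CAF. That is 75% called, where 44.2% of all tested genes were. In CAF against NF, Laptm5 was lower and 3 were not called (25% called, where 39.9% of all tested genes were). Laptm5, a lysosomal membrane protein of blood cells, averaged 33.1, 0.468 and 91.9 CPM in bcatKO_CAF, CAF and NF. Ptprc, which encodes the pan-leukocyte protein CD45, averaged 0.112 CPM in bcatKO_CAF, 0.106 CPM in CAF and 0.700 CPM in NF, and reached 1.24 CPM in NF replicate 2. That library also had the highest Itgb2, Itgb7 and Laptm5 (196 CPM). The 10 macrophage markers summed to 23.4 to 36.9 CPM in bcatKO_CAF, 6.92 to 11.4 CPM in CAF and 36.4 to 58.8 CPM in NF. Of 7 tested, 2 were higher, 1 was lower and 4 were not called in bcatKO_CAF against CAF (42.9% called). In CAF against NF, 0 were higher and 5 lower (71.4% called, where 39.9% of all tested genes were). The part of such cells in the Itgb2 and Itgb7 levels of any group was not tested.

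Itgb1, the partner of 12 alpha subunits and the most abundant gene of the set, was read at 2186, 2125 and 2375 CPM in bcatKO_CAF, 4084, 2706 and 3193 CPM in CAF and 2379, 1942 and 1863 CPM in NF. CAF libraries lay above all others, by a small margin for replicate 2. Itgb1 was lower in bcatKO_CAF than in CAF, at -0.58 ± 0.21 (edgeR adjusted p = 0.0477) and higher in CAF than in NF by 0.69 ± 0.21 (adjusted p = 0.0257), at the edge of the threshold. The call for bcatKO_CAF against CAF was lost without any of the bcatKO_CAF replicates (adjusted p = 0.125, 0.137 and 0.0929 without replicates 1, 2 and 3), without CAF replicate 1 (0.161) or 3 (0.0877), with total counts as the scaling (0.108) and with no filter (0.0881). The call for CAF against NF was lost without CAF replicate 1 (0.0907) or 3 (0.0548), without NF replicate 2 (0.0607) or 3 (0.0588), with total counts (0.0633) and with the 6 libraries alone (0.096). Per kb of exon, Itgb1 was 89.2% ± 0.285 of all beta subunit transcripts in bcatKO_CAF, 86.3% ± 3.62 in CAF and 88.8% ± 0.65 in NF (SD, n = 3). The summed level of its 12 alpha partners was 0.524 ± 0.0602 of the Itgb1 level in bcatKO_CAF, 0.348 ± 0.0912 in CAF and 0.652 ± 0.169 in NF, and single bcatKO_CAF and NF libraries (0.461 and 0.460) came close to the highest CAF library (0.453).

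The tested activators were higher in CAF than in either other group, apart from the scarce Fermt3. Talin binds the beta tail and pulls it towards actin. Tln1 was read at 587, 557 and 680 CPM in bcatKO_CAF, 1026, 1197 and 885 CPM in CAF and 613, 466 and 410 CPM in NF. It was lower in bcatKO_CAF than in CAF (-0.77 ± 0.20, edgeR adjusted p = 0.0120), a call lost without bcatKO_CAF replicate 2 (0.0540), and higher in CAF than in NF (1.06 ± 0.20, adjusted p = 0.00246). Tln2, the second talin, known from muscle and brain, was at 62.4, 46.2 and 38.6 CPM in bcatKO_CAF, 150, 197 and 191 CPM in CAF and 43.8, 70.1 and 64.0 CPM in NF. It was lower in bcatKO_CAF than in CAF, at -1.87 ± 0.24 (edgeR adjusted p = 0.000243) and higher in CAF than in NF by 1.60 ± 0.23 (adjusted p = 0.000568), and its share of talin transcripts per kb was 4.18% ± 1.22 in bcatKO_CAF, 8.56% ± 1.60 in CAF and 6.27% ± 2.25 in NF (SD, n = 3). The NF share overlapped that of CAF.

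Kindlin 2, encoded by Fermt2, binds the beta tail beside talin in most adherent cells. Fermt2 was read at 212, 207 and 180 CPM in bcatKO_CAF, 467, 393 and 331 CPM in CAF and 168, 191 and 277 CPM in NF. Fermt2 was lower in bcatKO_CAF than in CAF (-0.99 ± 0.21, edgeR adjusted p = 0.00465) and higher in CAF than in NF (0.90 ± 0.21, adjusted p = 0.00775), with no overlap, and made up 99.4% to 99.9% of kindlin transcripts per kb in every library. Fermt3, the kindlin of blood cells, was read at 1.48, 0.675 and 0.751 CPM in bcatKO_CAF, 0.560, 0.259 and 0.191 CPM in CAF and 1.20, 0.853 and 0.738 CPM in NF. It rested on 49, 19 and 51 reads in bcatKO_CAF, CAF and NF, and its calls were marginal (1.51 ± 0.52, edgeR adjusted p = 0.0397, for bcatKO_CAF against CAF and -1.46 ± 0.52, adjusted p = 0.0483, for CAF against NF). They were lost, with adjusted p up to 0.159 and 0.158, without most single libraries; for bcatKO_CAF against CAF these were the 3 bcatKO_CAF libraries (0.159, 0.0519 and 0.0616), CAF replicates 2 (0.124) and 3 (0.132) and NF replicate 2 (0.0513). For CAF against NF they were CAF replicates 2 (0.146) and 3 (0.158), the 3 NF libraries (0.108, 0.0778 and 0.0560) and bcatKO_CAF replicates 2 (0.0684) and 3 (0.0690). Both calls of Fermt3 were also lost with no filter on low counts (0.0622 and 0.0798), and that for CAF against NF with RLE scaling (0.0528), by DESeq2 (0.0634) and with the 6 libraries alone (0.0613). Fermt1, the epithelial kindlin, had 1 count in all 9 libraries.

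Ilk, a pseudokinase that links beta tails to parvin and PINCH, was read at 84.6, 89.6 and 71.2 CPM in bcatKO_CAF, 226, 259 and 216 CPM in CAF and 74.1, 96.0 and 98.6 CPM in NF. The CAF libraries stood apart from both groups. Ilk was lower in bcatKO_CAF than in CAF, at -1.51 ± 0.16 (edgeR adjusted p = 9.18e-05) and higher in CAF than in NF by 1.38 ± 0.16 (adjusted p = 0.000146). The gene shares 76.8% of its exon bases with Taf10 and 12.9% with Rrp8 on the opposite strand, and as no source used here gives the strand setting of the counting, reads from Ilk and of these genes cannot be told apart. Other tested members shared at most 8.04% of their exon bases with a gene on the opposite strand (Itga4 with Cerkl).

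Summed by ligand class, the alpha transcripts of CAF were RGD and collagen receptors, and those of the other groups were mostly laminin and RGD receptors. Laminin receptors made up 48.2%, 48.9% and 51.7% of alpha transcripts per kb of exon in bcatKO_CAF, 3.25%, 3.23% and 2.96% in CAF and 50.9%, 42.5% and 48.3% in NF. RGD receptors made up 47.0%, 47.8% and 43.9% in bcatKO_CAF, 83.3%, 76.8% and 70.9% in CAF and 44.8%, 56.1% and 49.4% in NF. Collagen receptors made up 2.11%, 1.72% and 1.98% in bcatKO_CAF, 11.2%, 18.4% and 23.2% in CAF and 2.21%, 0.839% and 1.53% in NF. No CAF library overlapped another group in any of these 3 shares. Shares depend on each other, so a small laminin part raises the others. The summed RGD level was 147, 132 and 118 CPM per kb in bcatKO_CAF, 244, 231 and 165 in CAF and 120, 193 and 175 in NF. By level, CAF thus overlapped NF in RGD receptors, though not with no division by length. In bcatKO_CAF the laminin part averaged more than the RGD part, at 49.6% and 46.2%, or 59.2% and 37.3% with the longest transcript. In NF the order depended on the length used. The laminin and RGD parts of NF averaged 47.2% and 50.1% per kb of exon, but 57.5% and 40.3% with the longest transcript. Itga4 and Itga9 together took 2.19% ± 0.564 in bcatKO_CAF, 2.25% ± 0.662 in CAF and 1.09% ± 0.811 in NF (SD, n = 3), the last being 0.624% without NF replicate 1, and the leukocyte alpha chains took at most 0.0418% of any library.

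The total of all 18 alpha subunits was 286 ± 23.0 CPM per kb in bcatKO_CAF, 276 ± 37.0 in CAF and 322 ± 47.0 in NF (SD, n = 3), and the groups overlapped. That overlap depended on the length used: with the longest transcript, the totals were 426 to 488 CPM per kb in bcatKO_CAF, 298 to 375 in CAF and 422 to 546 in NF, so that CAF lay below both. By level per kb, bcatKO_CAF ranked Itga5 (83.7 ± 12.0), Itga6 (71.2 ± 1.21), Itgav (46.9 ± 3.90), Itga7 (39.9 ± 6.75) and Itga3 (30.3 ± 0.0933) first, of which Itga5 and Itga6, and Itgav and Itga7, overlapped. CAF ranked Itga5 (122 ± 41.6), Itgav (84.4 ± 14.8) and Itga11 (45.2 ± 13.2), of which Itga5 and Itgav overlapped, and then Itga8 (6.85 ± 2.09). NF ranked Itga5 (123 ± 46.0), Itga6 (81.0 ± 23.3), Itgav (38.6 ± 8.53), Itga3 (36.4 ± 5.45) and Itga7 (34.0 ± 7.85), in which Itga5 overlapped Itga6 and the last 3 overlapped their neighbours. With the longest transcript as the length, Itga6 came before Itga5 in bcatKO_CAF and NF, so that order depends on the length used.

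**Figure D4:**
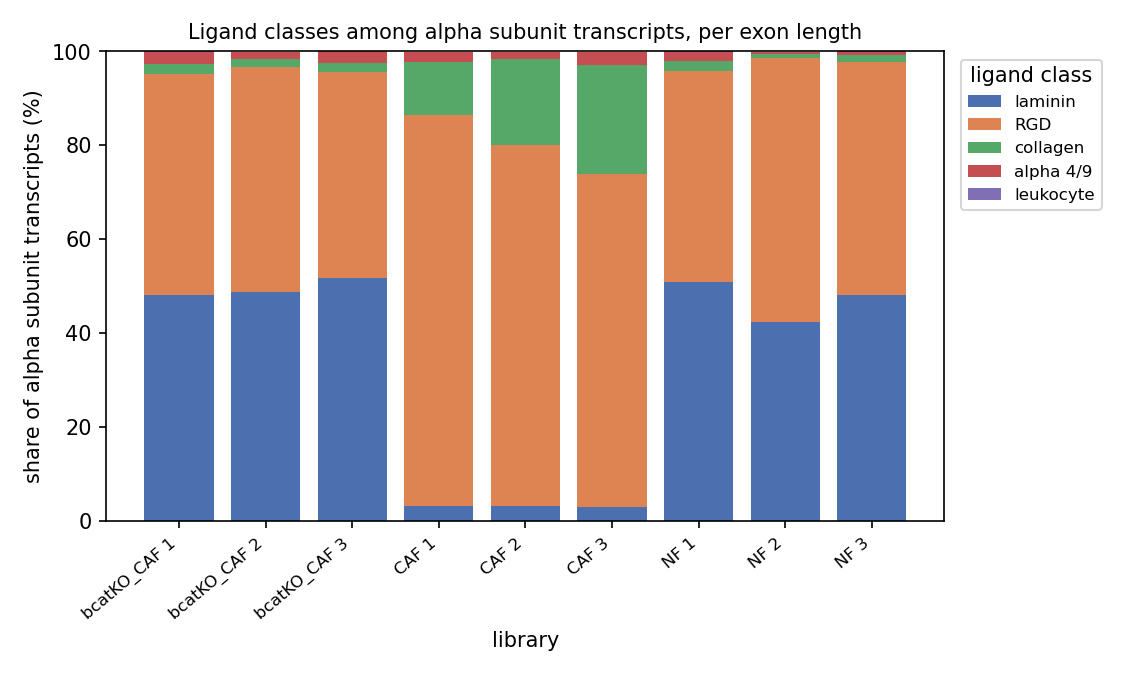
Share of each ligand class among the alpha subunit transcripts of each library (vertical axis, percent of summed CPM per kb of exon; 1 bar per library). The laminin part is 42.5% or more in each bcatKO_CAF and NF library and 3.25% or less in each CAF library, and the collagen part is 11.2% or more in CAF.

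The ligands of these receptors were read from lists, by class. Of 11 tested collagen genes (14 listed), 0 were higher and 10 lower in bcatKO_CAF than in CAF. In CAF against NF, 10 were higher and 0 lower. That is 90.9% called in each, where 44.2% and 39.9% of all tested genes were called. Col1a1, which encodes the main chain of fibrillar collagen and a ligand of the Itga11 product, averaged 293 ± 51.9 CPM in bcatKO_CAF, 19927 ± 5611 CPM in CAF and 149 ± 66.5 CPM in NF (SD, n = 3), a log2 difference of -6.09 ± 0.45 for bcatKO_CAF against CAF (edgeR adjusted p = 1.13e-05) and 7.06 ± 0.47 for CAF against NF (adjusted p = 6.07e-06). Of 10 tested laminin chains, 3 were higher and 3 lower in bcatKO_CAF than in CAF (60% called). In CAF against NF, 3 were higher and 2 lower (50% called). The higher count was 5 without NF replicate 1, and the lower count was 1 without any single bcatKO_CAF or CAF library or NF replicate 2. Lama5, the alpha chain of the laminins that the Itga3 and Itga6 products bind well, averaged 927 ± 170 CPM in bcatKO_CAF, 16.6 ± 5.19 CPM in CAF and 521 ± 420 CPM in NF. Lama2, the laminin chain of muscle basement membrane, ran opposite, at 8.45 ± 0.70, 62.8 ± 12.5 and 8.44 ± 3.0 CPM in bcatKO_CAF, CAF and NF. Lama5 was higher in bcatKO_CAF than in CAF by 5.80 ± 0.59 (edgeR adjusted p = 7.50e-05), and Lama2 was lower, at -2.89 ± 0.27 (adjusted p = 4.21e-05).

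Of 15 tested RGD ligands, 3 were higher and 8 lower in bcatKO_CAF than in CAF (73.3% called, where 44.2% of all tested genes were). In CAF against NF, 9 were higher and 2 lower (73.3% called, where 39.9% of all tested genes were). The count higher in bcatKO_CAF was 1 without bcatKO_CAF replicate 1 or any single CAF library, and the count lower in CAF than in NF was 1 without CAF replicate 1 or 3 or NF replicate 1. Postn, a matricellular ligand of alpha v integrins, averaged 13.7 ± 5.94 CPM in bcatKO_CAF, 4325 ± 366 CPM in CAF and 18.4 ± 23.1 CPM in NF (SD, n = 3; -8.30 ± 1.13 on the log2 scale for bcatKO_CAF against CAF, edgeR adjusted p = 0.000371). Tnc, a ligand of the Itga9 and Itga8 products, averaged 587 ± 284 CPM in bcatKO_CAF, 7943 ± 2692 CPM in CAF and 297 ± 296 CPM in NF, and was higher in CAF than in NF by 4.74 ± 0.76 (adjusted p = 0.000947). Spp1, which encodes osteopontin, averaged 8436 ± 284 CPM in bcatKO_CAF, 759 ± 256 CPM in CAF and 7654 ± 2121 CPM in NF and was among the 3 that were higher in bcatKO_CAF than in CAF. Fn1, which encodes fibronectin, the ligand of the Itga5 product, was read at 4820, 4437 and 8111 CPM in bcatKO_CAF, 6314, 7582 and 8260 CPM in CAF and 6885, 1563 and 726 CPM in NF; the groups overlapped, as they did for Itga5. Of 4 tested immunoglobulin-type and cadherin ligands, 3 (Icam1, Jam3 and F11r) were called in both comparisons, or 75%. They were lower in bcatKO_CAF than in CAF and higher in CAF than in NF. Vcam1, the ligand of the Itga4 product, averaged 238 ± 48.1, 255 ± 68.7 and 126 ± 81.0 CPM in bcatKO_CAF, CAF and NF, and Madcam1 and Cdh1, the ligands of the products of Itgb7 with Itga4 and Itgae, were at or under 0.859 CPM in every library.

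Inside the cell, of 35 tested adhesion plaque genes, 6 were higher and 17 lower in bcatKO_CAF than in CAF. In CAF against NF, 19 were higher and 5 lower. That is 65.7% and 68.6% called, where 44.2% and 39.9% of all tested genes were called. The median log2 difference was -0.64 and 0.72, against -0.01 and -0.04 over all tested genes. Tgfb1i1, the paxillin relative Hic-5, averaged 18.3 ± 3.01 CPM in bcatKO_CAF, 204 ± 46.0 CPM in CAF and 14.7 ± 1.51 CPM in NF (SD, n = 3). Pxn, which encodes paxillin itself, ran opposite, at 256 ± 47.8, 59.1 ± 12.7 and 336 ± 134 CPM in bcatKO_CAF, CAF and NF. The parvins, which bind Ilk, were also opposed, with Parvb at 312 ± 28.1 CPM in bcatKO_CAF, 50.1 ± 21.8 CPM in CAF and 319 ± 52.9 CPM in NF, and Parva at 277 ± 27.3, 744 ± 34.2 and 208 ± 70.0 CPM in the same groups. All 4 were called in both comparisons by edgeR. Of 5 tested integrin inhibitors, 2 were called in each comparison (40%) and 3 were not, about as often as all tested genes. The 2 were Flna and Dok1, lower in bcatKO_CAF than in CAF and higher in CAF than in NF. Flna, which competes with talin for beta tails, averaged 1157 ± 54.2, 4531 ± 201 and 1148 ± 121 CPM in bcatKO_CAF, CAF and NF.

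Most smooth muscle and pericyte markers were also high in CAF. The 10 markers summed to 551 to 1139 CPM in bcatKO_CAF, 6736 to 9425 CPM in CAF and 162 to 820 CPM in NF. Of 9 tested, 7 were lower in bcatKO_CAF than in CAF and 1 (Cspg4) was higher. In CAF against NF, 7 were higher and 2 (Rgs5 and Cspg4) were lower. That is 88.9% and 100% called, where 44.2% and 39.9% of all tested genes were called. Acta2, which encodes smooth muscle actin, averaged 6.12 ± 5.50, 5059 ± 844 and 3.27 ± 3.14 CPM in bcatKO_CAF, CAF and NF (SD, n = 3). The part of such cells, or of the fibroblast markers above, in the levels of Itga11, Itga8, Itga9, Itgb5, Tln2 and Ilk was not tested.

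Between bcatKO_CAF and NF, no difference in the repertoire passed the test with all libraries, which does not show that the groups were alike. Of the 25 tested members, 0 were called by edgeR, DESeq2 or limma-voom, 3 had an unadjusted p under 0.05 by edgeR (Itgb4, Itgb8 and Itga8) and 4 by DESeq2 and by limma-voom (the same with Itga4). The groups did not overlap for 4 of the 25, where 6.87% of all tested genes did not overlap (3.23% above and 3.64% below). Itga8 and Itgb8 were higher in every bcatKO_CAF library than in any NF library, Itga3 was lower, and Itga11 was higher but at or under 3 counts in both groups. The differences were 0.91 ± 0.38 for Itga8, 1.21 ± 0.36 for Itgb8 and -0.26 ± 0.20 for Itga3 (edgeR adjusted p = 0.601, 0.601 and 0.615). Itgb7 (-0.43 ± 0.27, adjusted p = 0.601) and Itga6 (-0.19 ± 0.23, adjusted p = 0.723) overlapped.

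That result turned on NF replicate 1. Without it, 7 members were called between bcatKO_CAF and NF, where 18.0% of 14759 tested genes were called. Itga8 (1.53 ± 0.27, edgeR adjusted p = 0.00958), Itgb8 (1.48 ± 0.36, 0.0244), Itgb4 (1.33 ± 0.33, 0.0263), Itgb5 (0.78 ± 0.20, 0.0316), Itga10 (1.15 ± 0.31, 0.0346) and Itga4 (1.58 ± 0.44, 0.0390) were higher in bcatKO_CAF, and Itgb2 was lower (-1.15 ± 0.31, 0.0345). In NF replicate 1, Itga8 stood at 7.48 CPM, against 2.86 and 2.83 CPM in NF replicates 2 and 3, and just under the bcatKO_CAF range of 7.58 to 8.78 CPM. Itga10 stood at 16.7 CPM there, against 4.82 and 4.74 CPM in the other NF libraries. Whether that library holds cells other than its label states was not tested. Without NF replicate 1, every member called between CAF and NF with all libraries except Fermt3 was still called.

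**Figure D5:**
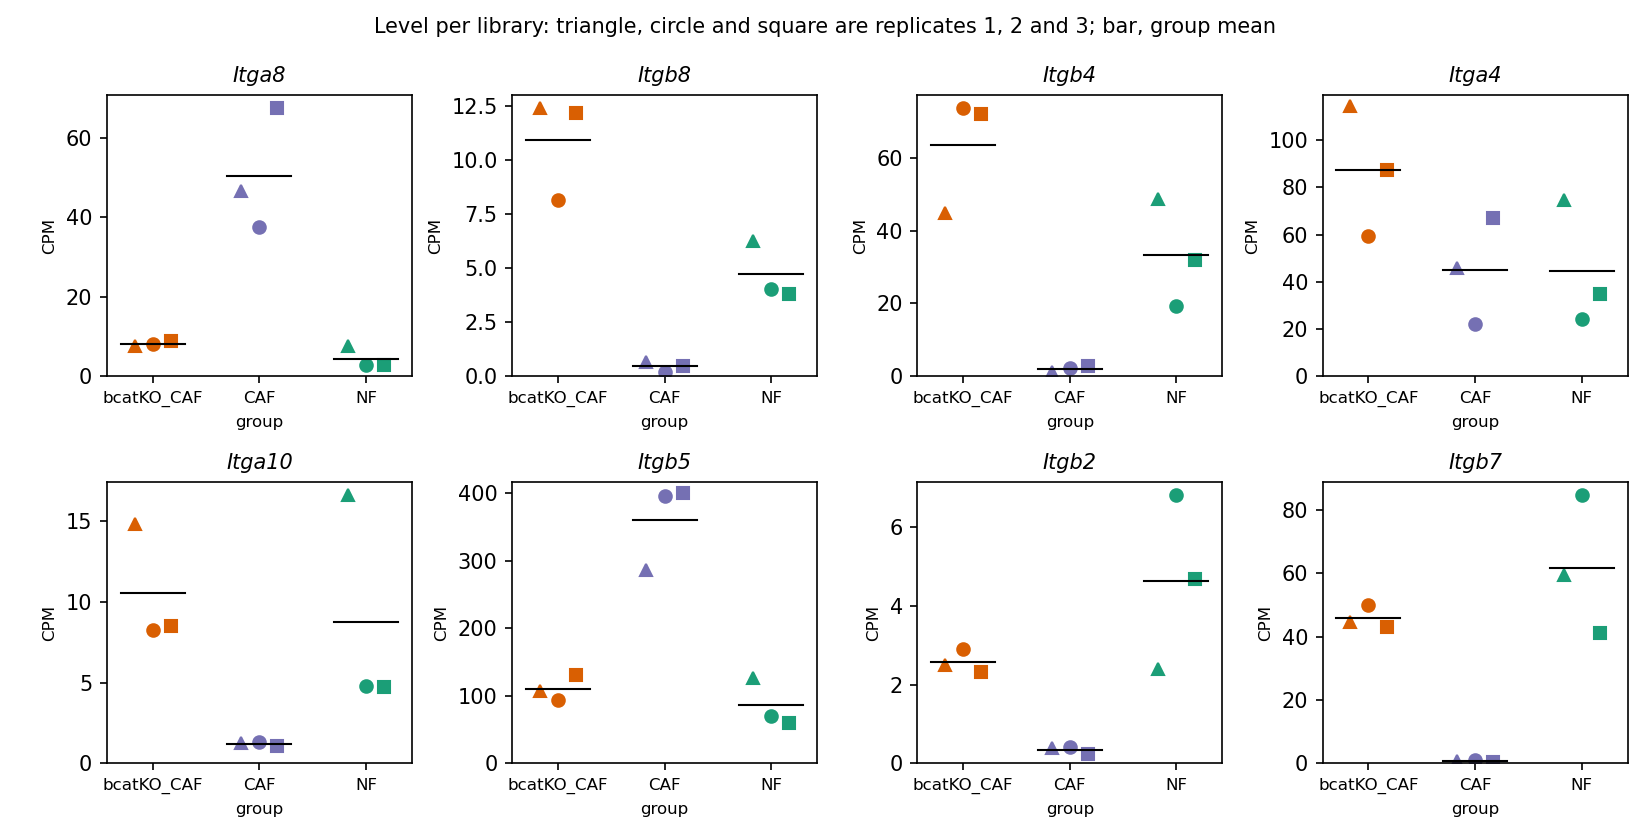
CPM per library (vertical axes) for the 7 members called between bcatKO_CAF and NF without NF replicate 1, and for Itgb7, chosen after their values were seen; triangles, circles and squares are replicates 1, 2 and 3, and bars are group means. The NF triangle of Itga8, Itgb4, Itga4 and Itga10 lies above the other NF points, near the bcatKO_CAF points.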

How the data were processed

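RNA of 9 fibroblast libraries, 3 per group as labelled, was measured by sequencing. The deposited table holds raw counts, whole numbers of reads per gene for 51912 genes, made by the authors; the submitters' processing notes name bcl2fastq, TopHat, edgeR and the build mm10, without versions. The read counter, its annotation and its strand setting were named in no source used here. The series table and the files of single samples differed in 0 cells.

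Counts were fitted with edgeR 4.0.16 in R 4.3.3 (filterByExpr, TMM, quasi-likelihood test, 1 fit of all 9 libraries with group as the only term), leaving 14314 genes, with Benjamini-Hochberg adjustment over all of them. DESeq2 1.42.0 and limma-voom (limma 3.58.1), other scalings and filters, the 6 libraries compared alone, the removal of Gm42418 (1.01% to 5.34% of counts) and the omission of each library were alternatives. The fit was tested on simulated data. With a simulated log2 difference of 1, it called 14% of changed genes for bcatKO_CAF against CAF. It called 21% for CAF against NF and 13% for bcatKO_CAF against NF. With a difference of 2 it called 67%, 70% and 70%. A gene that was not called may therefore still differ. Levels between genes were divided by the union of exon lengths in GENCODE on GRCm38. Promoters came from RefSeq (GRCm38.p6). A floor of 3 counts per library was used for genes near 0, and intervals cover counting error only.

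The members and lists were chosen with earlier results of these data known. Every member was named. Of each list, up to 4 called genes with the largest differences and a mean of at least 5 CPM in a group could be named with values. Spp1, Fn1, Vcam1, Madcam1, Cdh1, Ptprc and Parva were added after their values were seen.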

Additional observations from a re-analysis of the deposited data

How the results depend on the processing

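Every member kept its direction in every alternative run wherever it was called, and 0 results reversed. Over members and comparisons, other settings left 584 results on the same side of the threshold, made 3 stronger and 9 weaker; leaving out a library left 642 the same, made 8 stronger and 25 weaker. Itgb1, Fermt3, Itgb3 and Tln1 account for the losses given with those genes, and the cause was not tested. Total counts as the scaling moved the median log2 difference of all genes by 0.14 for bcatKO_CAF against CAF and by -0.16 for CAF against NF.

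Leaving out 1 library moved the number of members called between bcatKO_CAF and NF over 0 to 6 higher and 0 to 1 lower, the upper values being those without NF replicate 1. For the same comparison the ranges were 0 to 7 higher and 0 to 2 lower of adhesion plaque genes, 0 to 1 inhibitors, 0 to 5 collagen, 0 to 4 laminin, 0 to 4 RGD, 0 to 2 immunoglobulin-type and cadherin ligands and 0 to 2 tetraspanin partners higher. For bcatKO_CAF against CAF the ranges were 1 to 3 RGD ligands and 3 to 6 tetraspanin partners higher, and 0 to 2 traffic genes lower. For CAF against NF they were 3 to 5 laminin chains higher and 1 to 3 lower, 1 to 3 RGD ligands lower, 0 to 1 tetraspanin partners higher and 1 to 3 traffic genes lower. In CAF against NF, laminin chains lower were 1 under RLE scaling, limma-voom and the 6 libraries alone; RGD ligands lower were 1 under limma-voom and the 6 libraries; tetraspanin partners higher were 1 under DESeq2 and limma-voom; traffic genes lower were 4 under total counts and 1 with a filter of CPM at least 1. In bcatKO_CAF against CAF, traffic genes higher were 2 under total counts and with the 6 libraries, and those lower were 2 under RLE scaling, DESeq2 and the 6 libraries and 0 under total counts and with no filter.

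With the longest transcript as the length, laminin receptors made up 59.2% in bcatKO_CAF, 4.55% in CAF and 57.5% in NF of alpha transcripts, RGD receptors 37.3% in bcatKO_CAF and 40.3% in NF, and collagen receptors 1.55% in bcatKO_CAF. With no division by length, laminin receptors made up 51.5% in bcatKO_CAF, 3.44% in CAF and 51.9% in NF, RGD receptors 41.9% in bcatKO_CAF and 44.0% in NF, collagen receptors 2.62% in bcatKO_CAF, and Itga4 with Itga9 3.93% in bcatKO_CAF, 3.47% in CAF and 2.01% in NF.

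No paired analysis was possible because the labels give the libraries no replicate numbers and the numbers used here only name them. Members near the floor, such as Fermt3 and Itgb6, were limited by depth.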

Other observations

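Tetraspanins and related partners sit beside integrins in the membrane and steer their clustering. Counting both directions together, they were called about as often as all tested genes. Of 10 tested, 5 were higher and 0 lower in bcatKO_CAF than in CAF, and 0 were higher and 4 lower in CAF than in NF. That is 50% and 40% called, where 44.2% and 39.9% of all tested genes were called. By direction, 21.5% of all tested genes were higher and 22.7% lower in bcatKO_CAF than in CAF. In CAF against NF, these shares were 20.0% and 19.9%. The number higher in bcatKO_CAF was 3 without bcatKO_CAF replicate 1 or 2 or any single CAF library. Cd9, a tetraspanin partner of beta 1 integrins, averaged 717 ± 47.9 CPM in bcatKO_CAF, 114 ± 6.68 CPM in CAF and 791 ± 108 CPM in NF (SD, n = 3). Cd151, the close partner of the laminin receptors, averaged 296 ± 33.6 CPM in bcatKO_CAF, 121 ± 23.9 CPM in CAF and 261 ± 59.5 CPM in NF. Cd9 was higher in bcatKO_CAF than in CAF by a log2 of 2.65 ± 0.16 (edgeR adjusted p = 3.82e-06) and Cd151 by 1.29 ± 0.21 (adjusted p = 0.00113).

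Genes of integrin uptake and recycling were counted in the same way. Of 14 tested, 1 was higher (Eps8) and 1 lower (Numb) in bcatKO_CAF than in CAF, and 0 were higher and 2 lower (Eps8 and Acap1) in CAF than in NF, which is 14.3% called in each, where 44.2% and 39.9% of all tested genes were called. The groups did not overlap for 7 of the 14 between bcatKO_CAF and CAF and for 3 between CAF and NF, where 65.7% and 48.2% of all tested genes did not. The call of Numb was lost without bcatKO_CAF replicate 2 or 3 or CAF replicate 1 or 3. Eps8, an actin capping and signalling protein, averaged 606 ± 53.0 CPM in bcatKO_CAF, 129 ± 12.6 CPM in CAF and 549 ± 116 CPM in NF, a log2 difference of 2.24 ± 0.19 for bcatKO_CAF against CAF (edgeR adjusted p = 2.43e-05).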
